A study of Homo sapiens with 8 samples.

Results

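Accessible chromatin around MYC, the gene of a basic helix-loop-helix transcription factor that drives growth and cell division, was described in HUDEP-2 cells with and without acute Kit receptor stimulation. The domain was taken as the 2.9 Mb of chromosome 8 (build hg19, chr8:127900000-130800000) that holds MYC, the long noncoding RNA genes PVT1 and CCDC26, and the stretches of DNA between them. Members were all peaks in the 4 sgControl lists whose summit, the base with the most sequenced tags, lay in that window. PBS replicates 1 and 2 had 25 and 29 of them and SCF replicates 1 and 2 had 25 and 26, and where peaks of different libraries shared at least 1 bp they were merged into 37 regions of 43654 in all. The members were therefore chosen by being called, and their presence in the lists is a description.

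HUDEP-2 is an established human erythroid progenitor line, immortalised by doxycycline-inducible viral oncogenes and grown in SCF, EPO, dexamethasone and doxycycline. All cells carried the scrambled control guide (sgControl), and all were starved of growth factors for 5 h. Kit was then stimulated for 1 h with its ligand SCF (stem cell factor) at 50 ng/ml, or PBS was added, with 2 libraries per treatment and 50000 cells per library. ATAC-seq, in which the transposase Tn5 cuts open DNA, was used to measure accessibility. The sgEGR1 libraries of the same study were not analysed here.

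As background, MYC is transcribed shortly after many growth factors are given, and its protein pairs with MAX to bind E-box sequences at genes of ribosome production, metabolism and the cell cycle. The gene lies in a long stretch poor in other protein-coding genes, and much of its control comes from enhancers that act over long distances. Enhancers inside the PVT1 gene body and in far downstream DNA are known to act on MYC in blood cells, and those used differ between lineages. In erythroid precursors MYC level is tied to proliferation and falls as the cells mature.

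The lists held 29269 to 33616 peaks. Relative depth, recovered from the lists as described for the processing, ranged from 0.846 in SCF replicate 2 to 1.43 in PBS replicate 2, with PBS replicate 1 set to 1. Promoters of the erythroid marker genes GATA1, TAL1, KLF1, SLC4A1, EPOR, KIT and NFE2 had a region called in all 4 libraries, whereas ALAS2 had one in 1 library and HBG1 in none. Of the markers of other lineages, none of the 3 T cell genes (CD3E, CD2, LCK) had a called promoter region, and PF4, MPO, LYZ, CD79A, COL1A2 and ALB also had none. ITGA2B, CD14, CSF1R, PAX5 and COL1A1 had one in all 4. In bulk accessibility data, a site open in fewer cells and a site less open in each cell cannot be told apart.

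The accessible regions of the domain were crowded into PVT1. Distances below run from the MYC start site (chr8:128747680, on the plus strand), and a plus sign means downstream. That site is the outermost annotated start of MYC, whose 15 annotated transcripts start between 0 and 3.64 kb from it. Of the 37 regions, 21 lay at PVT1 (59.1 to 451.7 kb, annotated span), 3 lay upstream of MYC, 1 lay at the MYC promoter and 1 between MYC and PVT1. A further 2 lay between PVT1 and CCDC26, 6 lay in CCDC26 (0.899 to 1.95 Mb) and 3 lay beyond it. All 21 PVT1 regions fell between +59.0 and +313.8 kb, so the last part of the gene held no peak in any list.

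Of the 37 regions, 18 were called in all 4 libraries (51.3% of all 43654 regions were), and 15 of these 18 were at PVT1. That gave PVT1 38.2 such regions per Mb, whereas the longer CCDC26 gene had 0.953 per Mb. Among the 23 members over 1 kb from any start site, 7 were called in all 4 libraries (34.6% of all such regions were). Between +313.8 and +1822 kb no region was called in all 4 libraries, a stretch of 1.51 Mb with 4 regions called in fewer libraries. No list had a peak for the 928.5 kb from +639.7 to +1568 kb. Of the rest, 4 were called in 3 libraries (10.2% of all), 3 in 1 library of each treatment (7.93% of all) and 2 in the SCF libraries alone. A further 10 were called in 1 library (26.5% of all), with 3 of them in PBS replicate 1, 5 in PBS replicate 2 and 1 in each SCF library. These were small peaks, 228 to 502 bp wide, and 8 of the 10 ranked under 25 in their list, counted on a scale where 100 is the peak with the highest fold enrichment. At the edges of the window, the outermost members were at -378.9 kb and +1991 kb. The nearest summits outside it were at -858.7 kb, with a rank of 27.04, and at +2080 kb, with a rank of 17.7.

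**Figure D1:**
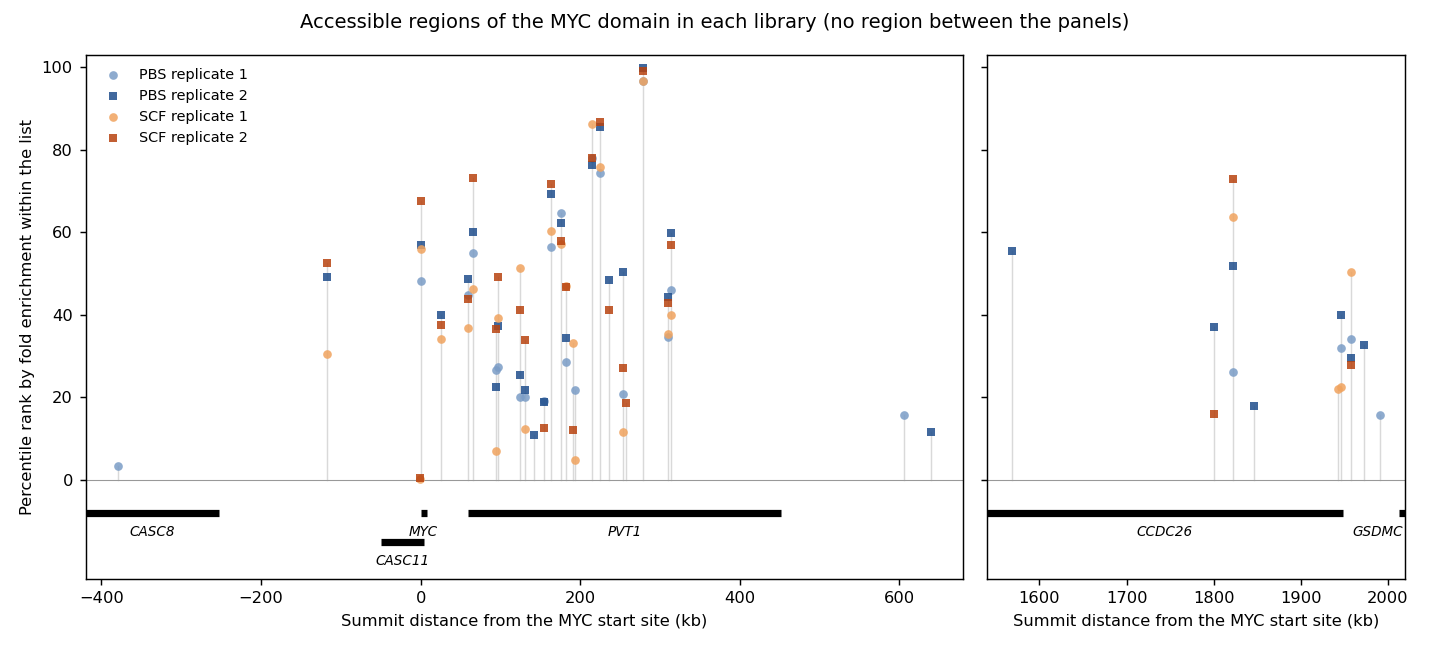
Each point is the highest peak of a region in 1 library, with its percentile rank by fold enrichment within that library's list (vertical axis, no unit) against the distance of the region's summit from the MYC start site in kb (horizontal axis). Black bars are annotated genes, and the stretch between the panels holds no region. Regions cluster at PVT1 between +59.0 and +313.8 kb, and the highest, at +279.2 kb, ranks between 96.5 and 99.7.

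The MYC promoter was open in every library, in 1 broad region of 1497 bp (chr8:128747287-128748783) whose summit lay in an exon of MYC at +0.6 kb. The summit also lies in an intron of the noncoding gene CASC11, which is transcribed from the other strand. The number of sequenced tags over the summit (the pileup) was 135 and 188 with PBS and 127 and 135 with SCF, the highest pileup of the domain in each library. The fold enrichment, which is the pileup over the local background with 1 added to each, was 6.90 and 7.46 with PBS and 8.02 and 8.96 with SCF. The corresponding percentile ranks were 48.1 and 56.9 with PBS and 55.9 and 67.5 with SCF. The treatments overlapped in rank, since the higher PBS library stood above the lower SCF library. The mean rank was 52.5 ± 6.19 with PBS and 61.7 ± 8.15 with SCF (SD, n = 2), and the exact two-sided permutation test gave p = 0.667. With 2 libraries against 2 the smallest value this exact test can give is 0.333.

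How tall the MYC promoter looked depended on the measure. By fold enrichment, 31.0% of the promoter regions called in all 4 libraries had a lower mean rank, whereas by -log10 p, the other strength measure in the lists, 79.5% had a lower one. Its ranks by -log10 p were 87.2, 90.7, 89.0 and 94.0, and its ranks by pileup were 94.7, 95.8, 94.5 and 97.1 (PBS 1, PBS 2, SCF 1, SCF 2). The local background at the promoter was 15.9 to 17.9 times the library background, above that of at least 98.2% of peaks in every list. High local backgrounds also stood at the far end of the PVT1 cluster. The regions at +309.7 kb and +313.8 kb, the second over the start of the microRNA gene MIR1207, had local backgrounds of 9.45 to 11.5 times the library background. Their mean ranks were 31.1 and 26.9 points higher by -log10 p than by fold enrichment. Of the 18 regions called in all 4 libraries, 15 ranked higher by -log10 p, and the largest difference was the 33.1 points of the MYC promoter.

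A narrow peak beside the promoter was found after SCF in each library but after PBS in none. It lay at -1.2 kb (chr8:128746324-128746621), 665 bp from the edge of the MYC promoter region. Its summit was in an intron of CASC11, and an annotated CASC11 start lay within 1 kb of the region. Its pileup was 39 in each SCF library, but its local background was 15.4 and 15.5 times the library background. Its fold enrichment was therefore 2.57 and 2.71, and its ranks were 0.294 and 0.468, near the bottom of both lists by that measure. By -log10 p its ranks were 18.7 and 28.5, and by pileup they were 66.1 and 70.3. The -1.2 kb region held a CTCF word, a match to the core sequence of the insulator protein CTCF described further on.

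**Figure D2:**
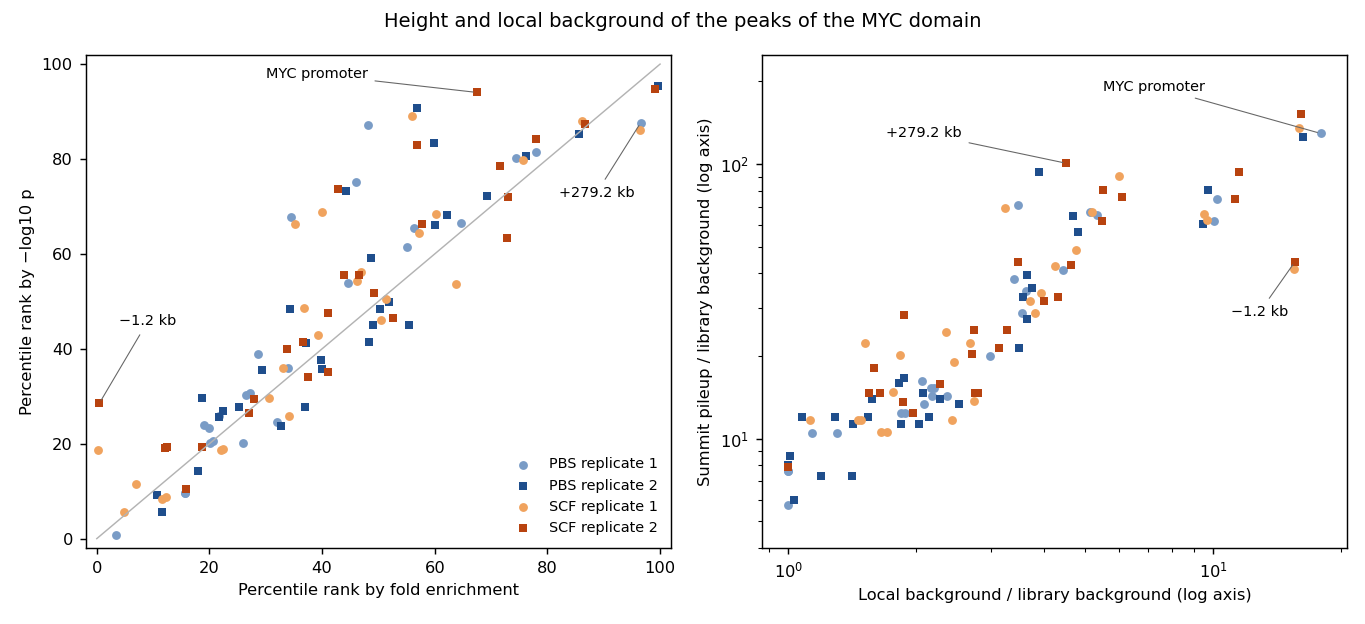
Left, the percentile rank by -log10 p against the percentile rank by fold enrichment for every member peak, with the line of equal ranks. Right, the summit pileup against the local background, each divided by the library background (log axes), where the MYC promoter stands at backgrounds of 15.9 to 17.9 and pileups of 125.3 to 152.5 times the library background. The peaks farthest above the line at the left include those of the MYC promoter and of +309.7 and +313.8 kb, with local backgrounds of 9.45 to 17.9.

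The PVT1 promoter, whose RNA is a noncoding neighbour of MYC, was open at +59.0 kb (chr8:128806363-128807866, 1504 bp). Its ranks were 44.7 and 48.7 with PBS and 36.8 and 43.8 with SCF, so both PBS libraries stood above both SCF libraries, by 0.876 points between the nearest. In PBS replicate 1 the region held 2 peaks. Its log2 difference in fold enrichment was -0.08 ± 0.22 (limma estimate ± SE, SCF minus PBS), with an adjusted p of 0.970. The PVT1 promoter was therefore lower in the order of fold enrichment than the MYC promoter in each library, and its pileups of 27 to 41 were also below the 127 to 188 of MYC.

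The tallest distal element of the domain by fold enrichment lay in an intron of PVT1 at +279.2 kb (chr8:129026449-129027378). Its ranks were 96.6 and 99.7 with PBS and 96.5 and 99.1 with SCF, and its pileups were 74, 140, 65 and 89 in the same order. Of the 22398 regions called in all 4 libraries, 483 (2.16%) had a higher mean rank, and of the 8619 that lay over 1 kb from any start site, 46 had. The treatments overlapped, and the log2 difference was -0.09 ± 0.11 with an adjusted p of 0.940 by limma. The accessibility of this element was therefore high with PBS and with SCF, and the difference was within its error.

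Other tall regions stood around microRNA and noncoding RNA starts within PVT1. The region at +225.1 kb (chr8:128972107-128973097), beside the start of MIR1205, ranked 74.4 and 85.5 with PBS and 75.7 and 86.6 with SCF. The region at +214.4 kb (chr8:128961526-128962514), beside the start of LINC02912, ranked 77.9 and 76.3 with PBS and 86.2 and 77.9 with SCF. At both regions the treatments overlapped. The intronic region at +163.4 kb ranked 56.3 and 69.3 with PBS and 60.1 and 71.6 with SCF, and the intronic region at +65.4 kb ranked 55.0 and 59.98 against 46.1 and 73.1. At +65.4 kb the 2 SCF libraries lay on both sides of the PBS libraries. At an internal PVT1 start at +176.3 kb (chr8:128923116-128924416) both PBS ranks, 64.7 and 62.2, stood above both SCF ranks, 57.2 and 57.7. The log2 difference there was -0.11 ± 0.19 by fold enrichment and 0.06 ± 0.20 by pileup over the library background (limma estimate ± SE), so its sign depended on the measure.

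The remaining PVT1 regions called in all 4 libraries were lower or in the middle of the lists. The region at +253.2 kb, near another internal PVT1 start, ranked 20.7 and 50.3 with PBS and 11.6 and 27.1 with SCF, which overlapped. Its log2 difference was -0.31 ± 0.24 (adjusted p = 0.864 by limma), the lowest of the 18 with all libraries, and it was -0.56 without PBS replicate 1 and -0.0749 without PBS replicate 2, where +176.3 kb was lower (-0.19). The region at +309.7 kb ranked 34.5 to 44.3 over the 4 libraries, and the region at +313.8 kb ranked 46.0 and 59.9 with PBS and 40.005 and 56.8 with SCF. Both overlapped between treatments. The 3 regions at +94.7, +96.3 and +130.6 kb ranked from 6.95 to 49.2. The median of the mean ranks was 47.1 for the 18 regions, against 63.3 for all regions called in all 4 libraries and 51.4 for those over 1 kb from a start site.

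**Figure D3:**
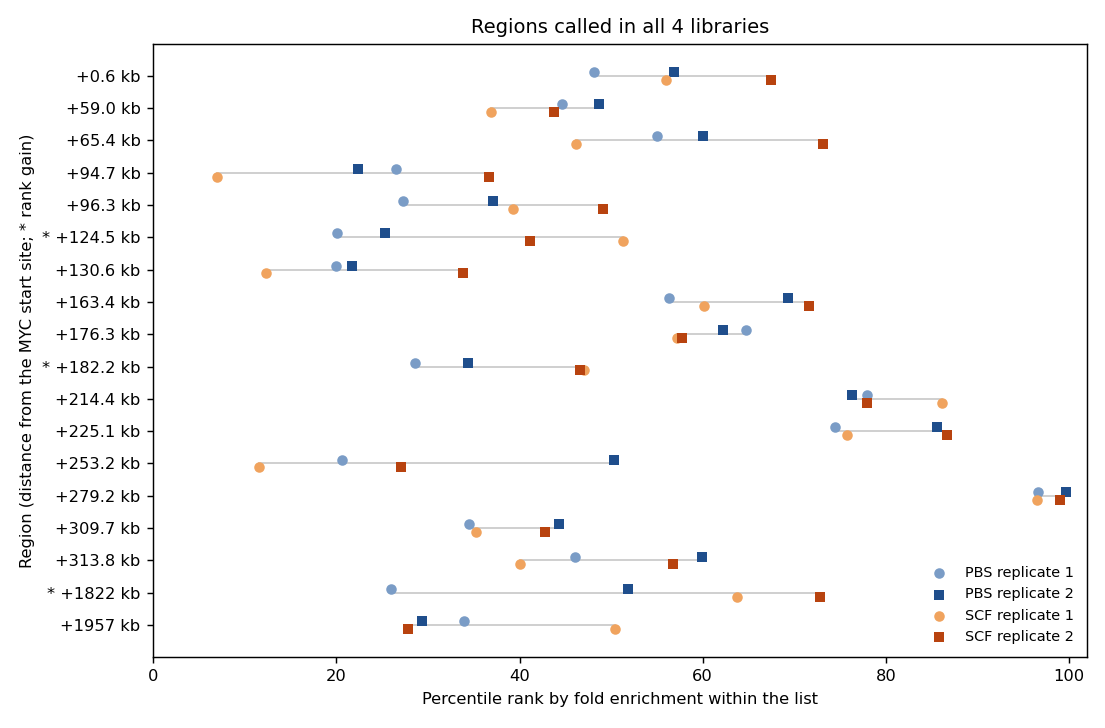
Percentile rank by fold enrichment in each of the 4 libraries (horizontal axis) for the 18 regions of the domain called in all 4, ordered by distance from the MYC start site, with a grey line over the range. Asterisks mark the 3 rank gains, whose lower SCF rank is 10 points or more over the higher PBS rank, and 12 of the 18 overlap between treatments.

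The order of the 18 regions was shared in large part between libraries. Spearman's rho of their ranks was 0.880 for the pair of PBS libraries and 0.7998 for the pair of SCF libraries, and it ran from 0.664 to 0.858 for pairs of different treatment. These are descriptions over 18 regions of the same cells that share base composition and local background from library to library. The summits of a region lay a median of 99 bp apart between the farthest libraries.

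Beyond PVT1 few regions were called. The 2 regions between PVT1 and CCDC26, at +606.3 and +639.7 kb, were each called in 1 PBS library with pileups of 8 and 9. Within CCDC26, a long noncoding RNA gene whose far DNA is known to hold MYC enhancers in other blood cells, 1 of 6 regions was called in all 4 libraries, at +1822 kb. Past its start site, 1 of 3 was called in all 4, at +1957 kb (chr8:130704716-130705445), in an exon of an unnamed noncoding RNA gene. That region ranked 33.98 and 29.4 with PBS and 50.4 and 27.8 with SCF, which overlapped. The region at the CCDC26 promoter itself, +1947 kb, was called in both PBS libraries and in 1 of 2 SCF libraries with ranks of 22.5 to 40.02.

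The comparison of SCF with PBS asked whether acute Kit signalling changed accessibility in the domain. The number, extent and median rank of the member peaks overlapped between the treatments. The lists held 27 ± 2.83 member peaks with PBS and 25.5 ± 0.707 with SCF (SD, n = 2, exact two-sided permutation test, p = 1), and without PBS replicate 2 the difference turned from -1.5 to 0.5 peaks. As a share of each list this was 0.0845 ± 0.00254% with PBS and 0.0817 ± 0.00523% with SCF (exact permutation p = 0.667), and without SCF replicate 2 the difference turned from -0.00275 to 0.000944%. The peaks covered 18.2 ± 1.95 kb with PBS and 16.6 ± 1.22 kb with SCF (exact permutation p = 0.667). The median rank of member peaks was 28.6 and 44.3 with PBS and 39.3 and 43.3 with SCF (exact permutation p = 1), and leaving out PBS replicate 1 turned the sign of its difference, from 4.82 to -3.00 points.

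Call differences between treatments were few. SCF-only regions, which the 2 SCF lists share and the 2 PBS lists lack, numbered 2 of 37, against 1.65% of all regions. They were the -1.2 kb region described above and a PVT1 intronic region at +191.0 kb (chr8:128938322-128938745). The +191.0 kb region had pileups of 18 and 13 in the SCF libraries and ranks of 33.1 and 12.1. There were 0 PBS-only regions, against 2.37% of all regions. With a stricter list, peaks of -log10 q of at least 5, there was 1 region of each kind. Leaving out PBS replicate 2, the deepest library, gave 4 SCF-only and 3 PBS-only regions, and leaving out PBS replicate 1 gave 2 SCF-only and 5 PBS-only. Both rules are easier to meet when an arm has 1 library. No shares over all regions are given for these settings or for the stricter list.

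Of the 18 regions called in all 4 libraries, 3 had a rank gain, meaning that the lower SCF rank stood 10 points or more over the higher PBS rank. Of all regions called in all 4, 2.55% had one. All 3 lay within 1 kb of an annotated start site, where 1.27% of regions had a rank gain, and the 7 members farther off had none (4.61% of such regions did). A rank loss, the reverse, was seen at 0 of 18 (3.04% of all, 4.20% of those over 1 kb from a start site). With no minimum gap, 4 of 18 had both SCF ranks above both PBS ranks (16.0% of all) and 2 had the reverse (19.3% of all), at +59.0 and +176.3 kb, while 12 overlapped. The 3 rank gains lay at +124.5, +182.2 and +1822 kb. Ranked by -log10 p, the +124.5 kb region alone was a rank gain (1.65% of all regions were) and 0 of 18 were rank losses (2.17% of all), and with a gap of 20 points by fold enrichment 0 of 18 were rank gains. Without SCF replicate 1 the rank gains numbered 8 of 19. The rule is easier to meet with 1 SCF library, and no share over all regions is given for that setting. Among the marker genes named for the lineages, the promoter region of the myeloid gene CD14 had a rank gain as well, with ranks of 27.8 and 36.4 with PBS and 55.2 and 52.1 with SCF, and 0 had a rank loss.

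The rank gain at +124.5 kb (chr8:128871902-128872516) lay over an exon and an internal start of PVT1. Its ranks were 20.05 and 25.3 with PBS and 51.3 and 41.1 with SCF, so that the groups were 15.8 points apart at their nearest. The pileup was 12.4 and 11.3 times the library background with PBS and 24.4 and 24.9 times with SCF. By pileup the fold of SCF over PBS was 1.86, a log2 difference of 0.90 ± 0.28 (limma, unadjusted p = 0.00482, adjusted p = 0.613 over 22398 regions). By fold enrichment it was 1.40, or 0.49 ± 0.23 on the log2 scale (unadjusted p = 0.0518, adjusted p = 0.725, and 0.605 to 0.971 over all fits tried). The local background was also higher with SCF, at 2.35 and 3.27 times the library background against 1.88 and 1.84 times with PBS, and its part in the difference was not tested.

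The rank gain at +182.2 kb (chr8:128929200-128930263) lay in an intron beside an internal PVT1 start. Its ranks were 28.6 and 34.4 with PBS and 47.0 and 46.6 with SCF, and its pileup was 20.1 and 21.3 times the library background with PBS and 33.9 and 31.6 times with SCF. The treatments did not overlap, and the log2 difference in fold enrichment was 0.34 ± 0.22 (adjusted p = 0.817 by limma). Among the 18 it was the only region with a CTCF word at its summit.

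The rank gain farthest from MYC lay at +1822 kb (chr8:130569790-130570352), in an intron of CCDC26 beside one of its internal starts. Its ranks were 26.0 and 51.8 with PBS and 63.8 and 72.8 with SCF, and its fold enrichment was 5.08 and 6.83 with PBS and 9.04 and 9.78 with SCF. The groups did not overlap, although the PBS libraries lay far apart. The pileups were 11 and 25 with PBS and 21 and 25 with SCF, or 10.52, 16.7, 22.3 and 28.2 times the library background. Its fold of SCF over PBS was the largest of the domain by fold enrichment, 1.60, or 0.68 ± 0.22 on the log2 scale, with an unadjusted p of 0.00663 and an adjusted p of 0.635 by limma. Over all fits its log2 difference ran from 0.46 to 0.88 and its adjusted p from 0.333 to 0.886.

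Across the genome no region passed the limma test, which used deposited peak heights at regions called in all 4 libraries. The paper compared reads by another method (MAnorm) and reported sites with higher and sites with lower accessibility after SCF. The results therefore differ in measure, test and regions, and the absence of passing regions here does not speak against those sites. In the limma fit of log2 fold enrichment over the 22398 regions called in all 4 libraries, 0 were higher and 0 lower with SCF at an adjusted p under 0.05 (0.00% of all regions in each direction), and the members had 0 of 18. At an unadjusted p under 0.05, 787 regions were higher (3.51%) and 748 lower (3.34%), and of the members 1 was higher, at +1822 kb, and 0 lower. With pileup over the library background in place of fold enrichment, 2 members were higher at an unadjusted p under 0.05 by limma, at +124.5 and +1822 kb, and 0 lower. Of all 22398 regions, 853 were higher and 749 lower by that measure. The log2 differences of the 18 members ran from -0.31 to 0.68 with a median of 0.07, against a median of -0.00108 over all regions tested, and 12 of 18 were above 0 against 49.8% of all regions. Without SCF replicate 2 the median was -0.0623, with 9 of 19 above 0, and without PBS replicate 1 it was 0.0313, with 11 of 20 above 0. For the MYC promoter the log2 difference was 0.24 ± 0.20 by fold enrichment and 0.01 ± 0.14 by pileup. Its local background was 14.96 and 14.2 tags with SCF against 18.7 and 24.3 with PBS, not scaled for depth. As a multiple of the library background it was 15.9 and 16.0 with SCF against 17.9 and 16.2 with PBS. The relative depth was lower in both SCF libraries, and its part in these values was not tested.

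**Figure D4:**
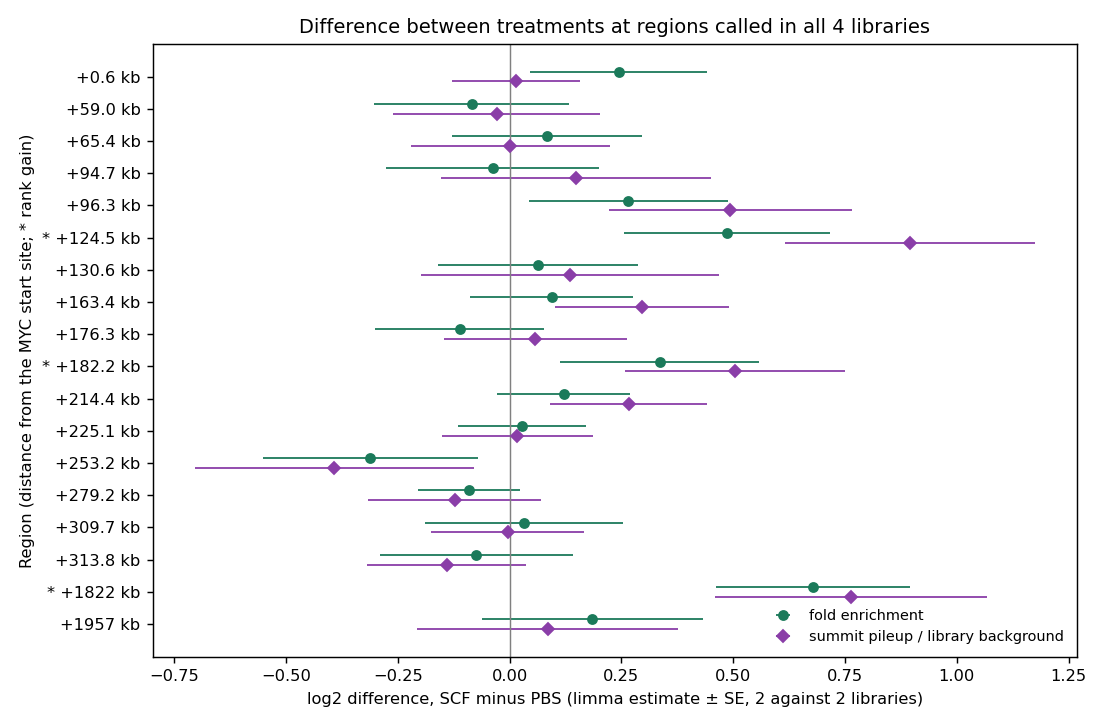
The log2 difference of SCF minus PBS (horizontal axis, limma estimate ± SE, 2 against 2 libraries) at the 18 regions called in all 4 libraries, by fold enrichment (circles) and by summit pileup over the library background (diamonds). Asterisks mark the 3 rank gains, which lie between 0.34 and 0.68 by fold enrichment, and the MYC promoter (+0.6 kb) lies at 0.24 by fold enrichment and 0.01 by pileup.

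Sequence words of signalling and erythroid factors were counted within 100 bp of each summit on both strands of GRCh37. A GATA word (NGATAA), the core bound by the erythroid master regulator GATA1 and its relatives, stood at 19 of 37 regions and at 10 of the 18 called in all 4 libraries. The share among the 18 was 55.6%, against 21.9% of all regions called in all 4 and 44.02% of those over 1 kb from a start site. The summits at +65.4, +163.4, +176.3, +225.1, +279.2 and +1822 kb were among those that held one, and so were 3 of the regions called in 1 library beyond CCDC26 or in its body. The MYC and PVT1 promoters held none. The share of G and C bases around the summit had a median of 51.7% over the 18 regions, beside 61.2% over all regions called in all 4 libraries.

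An AP-1 word (TGANTCA), bound by the FOS and JUN families that growth factor signals induce, stood at 5 of 37 regions, at -116.8, +96.3, +124.5, +191.0 and +1973 kb. Of the 3 rank gains, the +124.5 kb region held it, and of the 2 SCF-only regions, the +191.0 kb region held it. Among the 18 regions called in all 4 libraries the share was 11.1%, against 6.77% of all regions called in all 4 and 12.2% of those over 1 kb from a start site. Over the whole genome 23.1% of the 572 rank gain regions held the word. An EGR word (GCGTGGG), bound by the immediate early factors of the EGR family, stood at 1 region, the MYC promoter (3.80% of all regions held it).

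The remaining words stood at few summits of the domain. A STAT word (TTCNNNGAA), bound by the STAT5 factor downstream of the EPO receptor, stood at +142.1 and +1957 kb. That is 1 of the 18 regions called in all 4 libraries (5.56%, beside 4.57% of all such regions). In the wider window of 250 bp, 7 of the 18 regions held it (38.9%). The share in that window was 10.6% for all regions called in all 4 and 13.6% for those over 1 kb from a start site. A serum response element stood at +94.7 kb only, among the 37 regions (0.918% of all regions held one). A CTCF word stood at -1.2, +182.2 and +1568 kb, which is 8.11% of the 37 beside 4.26% of all regions. The E-box (CACGTG), the sequence that MYC and MAX bind together, stood at 0 of 37 regions within 100 bp and also within 250 bp, where 4.59% and 10.8% of all regions held it, and 3.73% and 8.78% of those over 1 kb from a start site. The absence of these letters says nothing of binding, and a match is not a binding site.

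**Figure D5:**
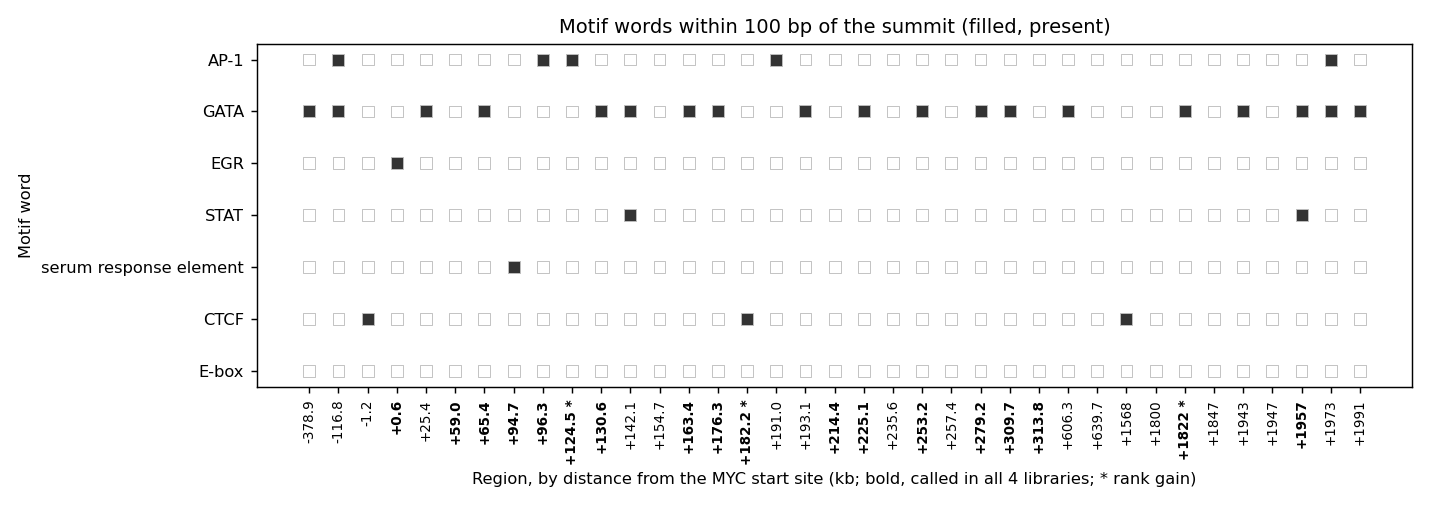
Filled squares mark regions (columns, by distance from the MYC start site in kb) that hold a motif word (rows) within 100 bp of the summit. Bold columns were called in all 4 libraries and asterisks mark rank gains. The GATA row is filled at 19 of 37 regions and the E-box row at none.

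Genes that act with MYC had open promoters that did not pass the test between treatments. Of 46 listed genes, 45 had a promoter region called in all 4 libraries, with 0 higher and 0 lower at an adjusted p under 0.05 and 0 rank gains or losses (1.27% of regions within 1 kb of a start site had a rank gain, and 3.04% of all regions called in all 4 had a rank loss). TERT, a MYC target that encodes the catalytic subunit of telomerase, was called in 2 libraries. MAX, the obligate partner of MYC, ranked 78.1 and 86.2 with PBS and 83.2 and 83.5 with SCF, and its log2 difference was 0.02 ± 0.13 (adjusted p = 0.988 by limma). The 12 genes of the MAX network, partners and antagonists such as MXD1 and MNT, had a median log2 difference of -0.02. The 8 genes of MYC protein turnover, such as the ubiquitin ligase gene FBXW7, had a median of 0.06. The 10 cofactor genes had a median of -0.07 and the 15 target genes of 0.01, beside -0.01 over all promoter regions called in all 4. Both SCF ranks stood above both PBS ranks in 7 of the 45 genes and the reverse in 8, beside 16.0% and 19.3% of all regions called in all 4.

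By fold enrichment 1 gene of these lists had an unadjusted p under 0.05. CAD, whose product starts pyrimidine synthesis and which was named after its values were seen, ranked 24.6 and 49.0 with PBS and 67.5 and 54.7 with SCF. The groups did not overlap, and its log2 difference was 0.56 ± 0.23 (unadjusted p = 0.0285, adjusted p = 0.678 by limma). By pileup over the library background 3 of the 45 genes had one, beside 853 regions higher and 749 lower of all 22398. CAD had a log2 difference of 0.77 by that measure (unadjusted p = 0.00390, adjusted p = 0.607 by limma). USP28, which encodes a deubiquitinase of MYC, had one of -0.37 (unadjusted p = 0.0333, adjusted p = 0.674), and TFRC, the transferrin receptor gene, had one of -0.38 (unadjusted p = 0.0465, adjusted p = 0.697), so 2 of the 3 log2 differences were below 0. Both genes were likewise named after their values were seen. The promoters of MYCN and MYCL, the close relatives of MYC, also named after their values were seen, were called in all 4 libraries. MYCN had the lowest mean rank of the MAX network, 16.4, and MYCL stood at 55.9, close to the 57.1 of MYC.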

How the data were processed

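ATAC-seq peak lists of the 4 sgControl libraries (2 PBS, 2 SCF) were analysed, with groups from the titles. Of the 8 samples in the labels, the 4 sgEGR1 samples were not analysed here. The authors called peaks per library without pooling, and the labels' processing notes name bcl2fastq, Bowtie2 and SAMtools. The series text and the file headers give hg19, which was used, although the methods of the study name hg38. The deposited lists hold a score (not used), a fold enrichment ratio, and −log10 p-values and q-values, with a largest q of 0.0497. Peak names carry other replicate numbers than the titles (2, 3, 1 and 2).

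Whole pileups and local backgrounds were recovered from the deposited fold enrichment and −log10 p under a Poisson model (100% whole within a relative error of 0.0001, for −log10 p under 300). The lowest local background of a list was its library background, and the ratio of this to that of PBS replicate 1 was the relative depth. Total reads are unknown, so no counting interval is given. Overlapping peaks (1 bp) were merged, and each region took the rank of its best peak. A promoter region lay within 1 kb of a start site in GENCODE 44 lifted to GRCh37. Chromosome lengths were compared with the lists (0 of 24 exceeded).

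Regions called in all 4 libraries were tested with limma 3.58.1 (R 4.3.3, mean-variance trend) on log2 fold enrichment, centred on each library's median, with no pseudocount and Benjamini-Hochberg adjustment over 22398 regions. In simulated data 200 of 22398 regions were changed, 50 each by 0.5, 1, 1.5 or 2 on the log2 scale. The noise was drawn from the variances of the real fit. The fit recovered 34% of regions changed by 0.5 and 94% of those changed by 1, with 15 false calls. A lone changed region among unchanged ones faces a stricter cutoff, so these shares do not say how often 1 changed member would pass. Single values were compared by exact permutation. The paper describes its ATAC-seq as biological duplicates and does not say whether these were separate cultures. The p-values measure the spread between these libraries, which may be in part technical.

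Regions named were those at start sites called in all 4 libraries, the 10 highest, those with a call or rank difference, the 3 largest limma differences each way, MAX, and network genes past a threshold. The members and lists were chosen with earlier results of these data known. Some marker genes are not reported here. Alternatives were equal list sizes, a q filter, other ranks, gaps, overlaps, windows and fits, and leaving out each library.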

Additional observations from a re-analysis of the deposited data

How the results depend on the processing

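No setting gave a member of the domain or a MYC network gene past the adjusted threshold. Within 1 Mb of the MYC start the difference in peaks reversed to 0.5 and that in share to 0.00294%. With −log10 q of at least 5, SCF-only and PBS-only regions each numbered 1. Rank gains numbered 1 by −log10 p and 0 with a gap of 20 points. Within 250 bp of the summit, AP-1 words stood at 4 of 18 regions, EGR at 2, STAT at 7 and CTCF at 2. By pileup over the library background the log2 difference changed sign at +94.7 kb (0.15), +176.3 kb (0.0575) and +309.7 kb (-0.00402).

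Leaving out 1 library at a time, the differences of SCF minus PBS ran from -3.5 to 0.5 peaks, from -0.00645 to 0.000944% in share, from -2.91 to -0.16 kb in covered length, from -3.00 to 12.7 points in median rank and from 3.44 to 14.97 points in the rank of the MYC promoter. SCF-only regions numbered 2 to 4, PBS-only 1 to 5, rank gains 3 to 8 and rank losses 0 to 1. These rules are easier to meet when an arm has 1 library, and no shares over all regions are given beside these counts. Across the genome, leaving out 1 library gave 0 to 8 regions higher and 0 to 5 lower with SCF, none of them in the domain. The arm with 1 library was assumed to vary like the other. The median log2 difference of the members ran from -0.0623 (without SCF replicate 2) to 0.10. The log2 difference changed sign at 10 of 18 regions without at least 1 library. Its range was -0.18 to 0.33 at +65.4 kb, -0.30 to 0.21 at +94.7 kb, -0.0933 to 0.21 at +130.6 kb, -0.0308 to 0.21 at +163.4 kb, -0.0291 to 0.26 at +214.4 kb, -0.0843 to 0.13 at +225.1 kb, -0.27 to 0.0737 at +279.2 kb, -0.00829 to 0.0621 at +309.7 kb, -0.21 to 0.0430 at +313.8 kb and -0.10 to 0.46 at +1957 kb. It stayed below 0 at +59.0 kb (-0.10 to -0.0782), +176.3 kb (-0.19 to -0.0440) and +253.2 kb (-0.56 to -0.0749). In all fits it was below 0 at +59.0 and +253.2 kb and above 0 at +0.6, +96.3, +124.5, +182.2 and +1822 kb.

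Replicate numbers are shared between treatments, but nothing says that they mark a shared culture, and the deviations of same-numbered libraries correlated at 0.0121 over 2 pairs. With the replicate block, 0 of 18 regions and 0 network genes passed, the +1822 kb region had an adjusted p of 0.441 by limma, and no call changed.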
